A study of Mus musculus with 12 samples.

Results

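Myelocytes were set against LSK cells on the 6 arrays of these populations, 3 of each, out of 12 arrays that cover 4 populations of C57BL/6 mouse bone marrow, each obtained by cell sorting. No values chose the genes: all 19937 genes with a row of their own on the Affymetrix Mouse Gene 1.0 ST array, 1 row for each gene, out of 34760 rows in all, were tested. The cells of every group were untreated and taken from marrow without culture, and neither the age nor the sex of the mice is given in the sources used here. LSK cells lacked B220, Ter119, CD3, Gr-1 and CD11b and carried Sca1 and cKit. Myelocytes came from cells without B220, CD3 and Sca1, among other antigens, and were gated on markers that included Gr-1, cKit and CD16/32. The arrays of a group are described as biological replicates, but whether each came from 1 animal or from pooled animals is not given. The p-values and standard errors reflect how far the samples spread within their groups, which may be technical in part. That spread was shared over all 12 arrays, those of promyelocytes and granulocytes included. The comparison answers which messages separate a committed, granule-forming precursor from the stem and early progenitor compartment.

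LSK cells hold the haematopoietic stem cells and the multipotent progenitors, which keep open the lymphoid, erythroid, megakaryocytic and myeloid fates. The myelocyte is the last dividing stage of the neutrophil lineage. At the promyelocyte stage the cell makes primary granules, filled with myeloperoxidase and serine proteases, and at the myelocyte stage it turns to secondary granules, filled with lactoferrin and other antimicrobial proteins. Later stages add gelatinase granules and secretory vesicles, stop dividing and leave the marrow.

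Before the results, the 6 arrays were compared among themselves. Values are on the log2 RMA scale throughout and are listed in the order of replicates 1, 2 and 3. Differences are log2 values of myelocytes minus LSK cells with the moderated standard error (SE) of the limma fit. Across genes, which are not independent replicates, the myelocyte arrays correlated with each other at 0.986 to 0.991 and the LSK arrays at 0.985 to 0.987, whereas myelocyte arrays correlated with LSK arrays at 0.884 to 0.903. The genes of the sort antigens moved as the gates set them and are no finding: Ly6g, of the Gr-1 antigens, read 12.39, 12.31 and 12.22 in myelocytes, against 4.78, 4.07 and 4.64 in LSK cells, Itgam, which encodes CD11b, differed by 4.61 ± 0.12, Fcgr3 of CD16/32 by 3.20 ± 0.41, and Kit by -3.03 ± 0.23. Rows for Ly6a, Ly6c1 and Ly6c2 were not analysed here.

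Within myelocytes the arrays were not alike in the genes of other cells. The mean of 11 basophil and mast cell markers was 8.42, 7.50 and 6.72 in myelocytes, against 4.97, 5.10 and 4.54 in LSK cells. The mean of 12 monocyte and macrophage markers was 7.75, 7.34 and 6.47 in myelocytes, against 6.22, 6.57 and 5.72 in LSK cells, and that of 12 dendritic cell and class II MHC genes was 6.87, 6.45 and 5.46 in myelocytes, against 5.92, 5.92 and 5.83 in LSK cells. Myelocyte replicate 1 was thus the highest and replicate 3 the lowest on all 3 lists. In bulk RNA fewer cells of a type and less RNA per cell cannot be told apart. Of 12472 genes whose myelocyte mean lay above the dim level described below, 54 spanned more than 4-fold among the 3 myelocyte arrays, and 50 of these were highest in replicate 1. LSK replicate 3 was low in primary granule genes (list mean 8.20, against 9.41 and 9.57 in LSK replicates 1 and 2), and Ms4a3, a membrane gene of granulocyte and monocyte progenitors, read 7.83, 8.30 and 8.53 in myelocytes, against 8.37, 9.20 and 5.25 in LSK cells.

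The arrays also differed in sex-linked messages. Xist, the RNA that coats the inactive X chromosome, read 3.34, 9.73 and 4.30 in myelocytes, against 11.25, 11.16 and 11.42 in LSK cells. The Y-linked gene Eif2s3y read 8.68, 2.24 and 8.38 in myelocytes, against 2.29, 2.15 and 2.07 in LSK cells, and Kdm5d and Uty, also on the Y chromosome, were likewise high in myelocyte replicates 1 and 3 and low in the other 4 arrays. The part of sex in other differences was not tested. Of the 9 Y-linked genes tested 0 were called, although Eif2s3y differed by 4.26 ± 1.87, Uty by 3.02 ± 1.27 and Kdm5d by 2.09 ± 0.92. The unlike myelocyte arrays widen these SEs, so that 0 calls do not show a lack of Y-linked differences. Xist was called lower (-5.49 ± 1.74, adjusted p = 0.0209, limma), a call that was lost without any 1 of these arrays but myelocyte replicate 2 (adjusted p from 0.0515 to 0.0946). With myelocyte replicate 2 alone against the 3 LSK arrays, Xist differed by -1.54. A group of 1 array has no spread of its own, so calls in that setting cannot show the part of sex in other genes.

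Of the 19937 genes, 1543 (7.74%) were higher and 2150 (10.8%) were lower in myelocytes, 18.5% in either direction. Calls required a minimum fold of 2 and a limma p, adjusted by Benjamini-Hochberg over all genes, under 0.05. The 3 arrays of myelocytes did not overlap with the 3 of LSK cells for 1536 of the genes called higher and 2136 of those called lower. Over all 19937 genes, called or not, the same held for 4652 in the higher direction and 4787 in the lower. A lack of overlap was thus common without a call. At a fold of at least 4, 547 were higher and 559 lower, and at a fold of at least 16, 112 were higher and 28 lower. The largest measured changes were thus mostly increases. The median difference over all genes was 0.05, and 6760 genes (33.9%) were dim in both populations, that is, at or under 4.55, a level that 95% of the means of 1178 olfactory and vomeronasal receptor genes did not pass. The fold of a single gene is given only where both populations lay above that level, whereas the counts by fold include dim genes. Of the genes called lower, 394 were dim in myelocytes, and of those called higher, 171 were dim in LSK cells. Background limits the size of such differences. The split between increases and decreases moved with the scaling: 41.8% of the calls were increases as deposited, against 52.8% (1906 higher and 1706 lower) with each array centred on its median, which shifted the median difference of all genes to 0.23.

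**Figure D1:**
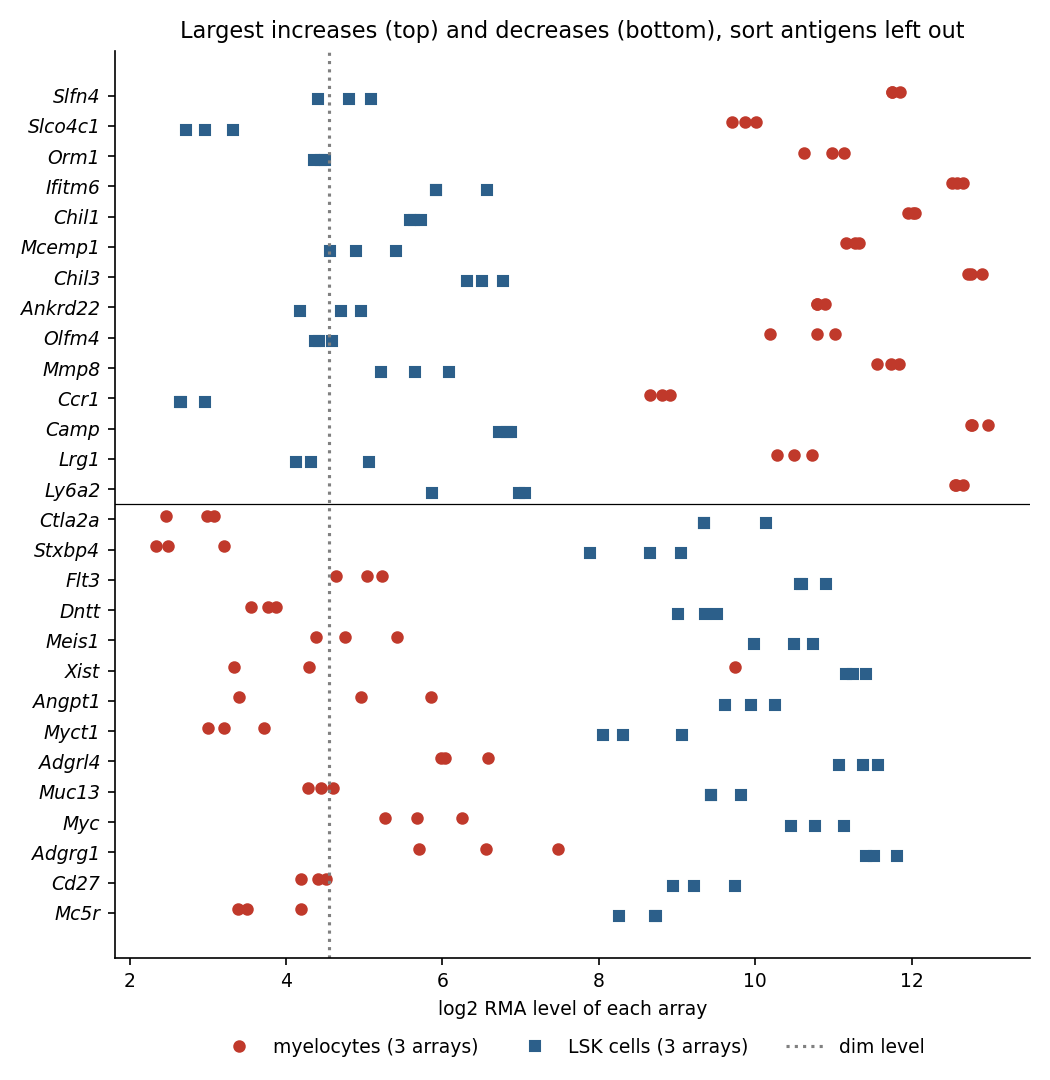
Log2 RMA level in each array for the genes with the largest increases (upper rows) and decreases (lower rows) in myelocytes, with 1 row for each gene, sort antigens left out. Circles are the 3 myelocyte arrays, squares the 3 LSK arrays and the dotted line the dim level of 4.55. Xist has 1 myelocyte array at 9.73 and the other two at 3.34 and 4.30.

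The largest increase outside the sort antigens was that of Slfn4, a Schlafen gene of myeloid cells, which read 11.84, 11.75 and 11.74 in myelocytes, against 4.80, 5.08 and 4.41 in LSK cells. It rose by 7.01 ± 0.20, or 129-fold (adjusted p = 1.54e-12). The organic anion transporter gene Slco4c1 read 9.86, 10.00 and 9.70 in myelocytes, against 2.97, 3.32 and 2.73 in LSK cells, where all 3 LSK values were dim. Ifitm6, a member of the interferon-induced transmembrane family, rose by 6.45 ± 0.36 (87.5-fold), Mcemp1, a membrane protein gene of mast cells and myeloid cells, by 6.29 ± 0.23 (78.5-fold), and the ankyrin repeat gene Ankrd22 by 6.21 ± 0.18 (74-fold). Ly6a2, a gene of the Ly6 cluster near those of the sort antigens, rose by 5.95 ± 0.31. These 6 genes were named on condition that no myelocyte array overlapped with an LSK array, so that their lack of overlap is no finding.

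Secondary granule genes accounted for much of the upper end. All 16 that were measured were higher in myelocytes, against 7.74% of all genes, with a median difference of 5.80 against 0.05 over all genes, and every array setting tried left all 16 called. Lactoferrin, Ltf, which binds iron, read 13.14, 13.12 and 13.18 in myelocytes, against 7.70, 7.44 and 7.88 in LSK cells. Camp, which encodes the cathelicidin antimicrobial peptide, read 12.98, 12.76 and 12.76 in myelocytes, against 6.87, 6.83 and 6.72 in LSK cells, and the collagenase gene Mmp8 read 11.83, 11.73 and 11.56 in myelocytes, against 5.22, 5.65 and 6.08 in LSK cells. The increases of these 3 genes were 5.47 ± 0.24 (44.4-fold), 6.02 ± 0.42 (65.1-fold) and 6.06 ± 0.24 (66.6-fold), with adjusted p of 1.08e-10, 1.89e-08 and 4.47e-11. The chitinase-like genes Chil1 (6.36 ± 0.16) and Chil3 (6.26 ± 0.29), the neutrophil surface glycoprotein Cd177 (5.90 ± 0.18) and the siderophore-binding lipocalin Lcn2 (4.18 ± 0.21) moved with them. Orm1 and Lrg1, which encode acute phase glycoproteins, and olfactomedin 4, Olfm4, were at the dim level in LSK cells and read 10.62 to 11.14, 10.28 to 10.73 and 10.19 to 11.02 in myelocytes.

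The change fell late in the lineage. The median level of the 16 genes was 6.20 in LSK cells, 6.84 in promyelocytes, 11.97 in myelocytes and 11.89 in granulocytes. Against promyelocytes all 16 were higher in myelocytes, where the share over all genes was 7.61%, and 3 of the 16 were higher in promyelocytes than in LSK cells, where it was 1.61%. These steps share arrays with the main comparison and are given side by side only. Not all secondary granule genes stayed high: Orm1 averaged 4.43, 4.78, 10.91 and 7.71 in LSK cells, promyelocytes, myelocytes and granulocytes.

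Promoters are shown for 2 secondary granule genes because C/EBP factors, the family that drives granule genes, are themselves among the genes that moved. The sequences run 5′ to 3′ on the strand of the gene, 250 bases before to 50 after the start site in RefSeq annotation of GRCm38.p6, with matches to TTNNGCAA on either strand (TTGCNNAA as read on the other) in capitals.
Ngp: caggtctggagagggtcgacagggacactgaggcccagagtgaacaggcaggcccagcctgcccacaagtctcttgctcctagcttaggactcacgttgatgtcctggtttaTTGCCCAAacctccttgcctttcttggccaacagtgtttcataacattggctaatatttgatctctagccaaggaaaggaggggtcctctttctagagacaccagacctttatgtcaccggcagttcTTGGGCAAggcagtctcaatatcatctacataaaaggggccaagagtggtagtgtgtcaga
Ltf: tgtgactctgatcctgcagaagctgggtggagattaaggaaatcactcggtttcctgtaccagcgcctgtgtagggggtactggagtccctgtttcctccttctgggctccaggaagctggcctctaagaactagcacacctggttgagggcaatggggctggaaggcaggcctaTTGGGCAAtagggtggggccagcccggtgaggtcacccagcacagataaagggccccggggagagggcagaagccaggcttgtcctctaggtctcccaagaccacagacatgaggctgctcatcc
The Ngp window lies at chr9:110419558-110419857 and the Ltf window at chr9:111019042-111019341, both on the plus strand. Ngp, a cathelicidin-like granule protein gene, held 2 matches, which began 138 and 11 bases before the start site, and Ltf held 1, which began 75 bases before it. Of 13 promoters found for secondary granule genes 4 held the motif (30.8%), Lcn2 and Mmp8 being the other two, as did 3 of 14 primary granule promoters (21.4%), 2 of 8 in the calprotectin and stefin list (25%) and 10.8% of 32851 promoters in all. The matches are a description of these windows and were not tested.

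Primary granule genes did not follow. Of 14 measured, 2 were higher and 6 lower, with a median difference of -1.01. Myeloperoxidase, Mpo, which makes hypochlorous acid, read 8.70, 8.82 and 8.72 in myelocytes, against 11.62, 11.99 and 10.47 in LSK cells, and fell by 2.62 ± 0.37 (6.13-fold, adjusted p = 3.13e-05). Neutrophil elastase, Elane, read 7.62, 8.17 and 8.58 in myelocytes, against 10.54, 11.54 and 8.66 in LSK cells, and proteinase 3, Prtn3, read 7.41, 7.41 and 7.97 in myelocytes, against 10.33, 10.47 and 8.51 in LSK cells. Their differences were -2.12 ± 0.55 and -2.17 ± 0.38, and the groups did not overlap for any of the 3 genes, with LSK replicate 3 the nearest of the LSK arrays to the myelocytes in each. Cathepsin G, Ctsg, differed by -1.46 ± 0.63 and did not pass (adjusted p = 0.0886). The cystatin gene Cst7 (-1.46 ± 0.37), the proteoglycan gene Srgn (-1.41 ± 0.22) and the endoplasmic reticulum chaperone Calr (-1.25 ± 0.15) were lower.

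The 2 primary granule genes that rose were Lyz2, which encodes lysozyme, present in granules of all types and in monocytes (13.32, 13.15 and 13.16 in myelocytes, against 9.98, 9.27 and 9.05 in LSK cells), and Serpinb1a, an inhibitor of the granule proteases (2.40 ± 0.25). For 10 of the 14 genes the highest mean lay in promyelocytes, not in either population compared here: Mpo averaged 11.36, 12.60, 8.75 and 6.92 and Elane 10.25, 11.77, 8.13 and 6.25 in LSK cells, promyelocytes, myelocytes and granulocytes. The list median was 9.53, 10.85, 8.45 and 6.58 in the same order, and in myelocytes against promyelocytes 11 of 14 were lower, where the share over all genes was 9.87%. The level in LSK cells rested on replicates 1 and 2: without LSK replicate 3, Mpo, Elane and Prtn3 differed by -3.06, -2.92 and -2.81.

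**Figure D2:**
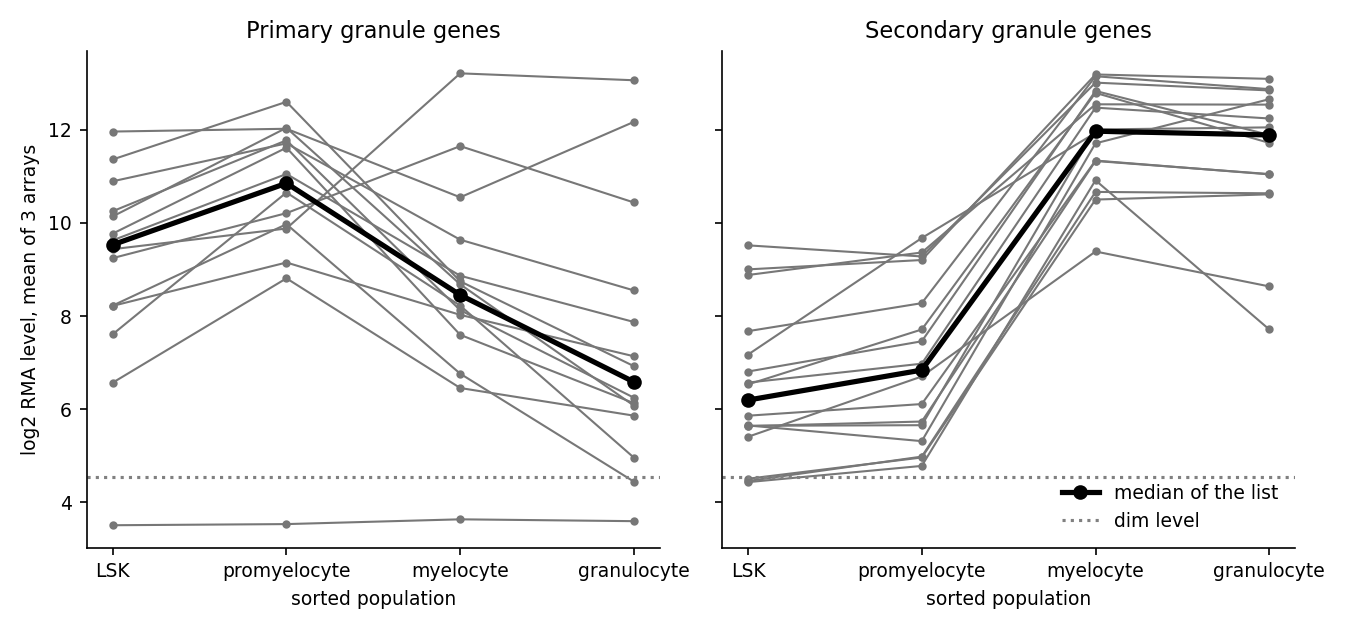
Mean log2 RMA level of 3 arrays for primary granule genes (left) and secondary granule genes (right) in LSK cells, promyelocytes, myelocytes and granulocytes, each grey line being 1 gene, the black line the median of the list and the dotted line the dim level of 4.55. The median of the primary list peaked in promyelocytes at 10.85, and that of the secondary list moved most between promyelocytes (6.84) and myelocytes (11.97).

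Genes of the later compartments were also high. Of 12 tertiary granule and secretory vesicle genes 11 were higher (median difference 2.68). Gelatinase B, Mmp9, read 12.11, 11.88 and 11.79 in myelocytes, against 5.56, 6.33 and 6.17 in LSK cells, and the membrane protease gene Mmp25 rose by 5.53 ± 0.15 (46.3-fold). Padi4, whose product citrullinates histones, rose by 3.08 ± 0.23. In the list of cytosolic calprotectin and stefin genes 6 of 8 were higher: the calprotectin subunits S100a8 and S100a9 read 12.74, 12.72 and 12.80 in myelocytes, against 8.16, 8.55 and 8.01 in LSK cells, and 12.95, 12.94 and 12.98 in myelocytes, against 8.23, 9.04 and 9.03 in LSK cells, in that order, with no overlap in either.

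The receptors that guide and arm the neutrophil were nearly all higher, 21 of 23 with a median difference of 4.41. Cxcr2, the receptor for neutrophil chemokines, read 10.83, 10.73 and 10.58 in myelocytes, against 5.78, 6.43 and 6.20 in LSK cells, and rose 23.9-fold (4.58 ± 0.29). The complement C5a receptor, C5ar1, read 10.01, 10.01 and 9.82 in myelocytes, against 4.16, 4.42 and 4.09 in LSK cells, and the chemokine receptor Ccr1 read 8.91, 8.65 and 8.81 in myelocytes, against 2.96, 2.65 and 2.64 in LSK cells. LSK cells were dim for both of these. Among activating and inhibitory receptors Clec5a (5.49 ± 0.39), Siglece (5.43 ± 0.20), Trem1 (4.65 ± 0.32) and Pirb (4.85 ± 0.20) rose, as did the Toll-like receptor genes Tlr4 (1.99 ± 0.24) and Tlr2 (1.22 ± 0.22). Several of these were higher still in granulocytes, for example Cxcr2 at 6.13, 6.71, 10.71 and 12.30 over the 4 populations in order.

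Of 7 genes for the NADPH oxidase, which makes superoxide, and its regulators, 6 were higher. The catalytic subunit Cybb read 12.85, 12.89 and 12.82 in myelocytes, against 7.44, 7.45 and 6.83 in LSK cells (49-fold higher), its partner Cyba rose by 3.38 ± 0.19, the cytosolic subunits Ncf1 and Ncf4 by 3.53 ± 0.17 and 3.71 ± 0.19, and the proton channel Hvcn1 by 3.84 ± 0.26. Of the GTPases, Rac2, the blood form, rose by 1.56 ± 0.19. In promyelocytes the subunits had intermediate levels, with Cybb at 7.24, 9.34, 12.86 and 12.53 over the 4 populations in order. Motility genes rose as well, 15 of 22 with 0 lower: the kinase Fgr (5.16 ± 0.16), the actin-severing gelsolin, Gsn (3.89 ± 0.24), the crosslinker Actn1 (3.40 ± 0.15) and vinculin, Vcl (3.29 ± 0.17). Actb, which encodes beta-actin, read 13.60, 13.42 and 13.39 in myelocytes, against 12.78, 12.95 and 12.88 in LSK cells, a difference of 0.60 ± 0.14 that lay under the fold required.

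**Figure D3:**
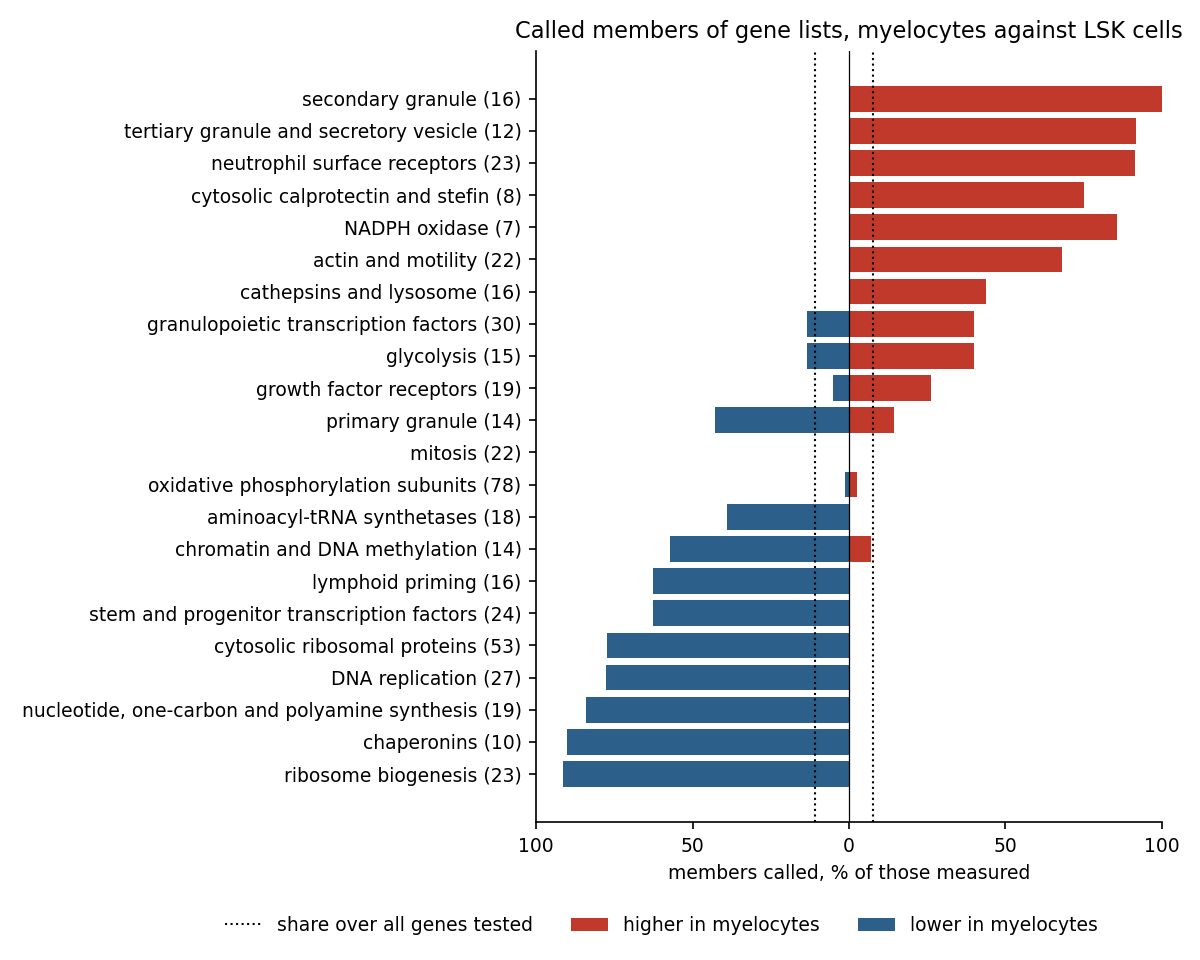
Share of the measured members (number in parentheses) of each gene list that were called higher (bars to the right) or lower (bars to the left) in myelocytes than in LSK cells, in percent. Dotted lines mark the shares over all genes tested, 7.74% higher and 10.8% lower. Secondary granule genes reached 100% higher and ribosome biogenesis genes 91.3% lower, and mitosis genes had neither.

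The transcription factors that build granulocytes were divided, with 12 of 30 higher, 4 lower and a median difference of 0.09. Cebpe, which encodes C/EBP epsilon, the factor that secondary granule genes require, read 9.70, 9.80 and 10.03 in myelocytes, against 5.92, 6.70 and 5.98 in LSK cells, and rose by 3.64 ± 0.20 (12.5-fold, adjusted p = 1.17e-09). C/EBP delta, Cebpd, read 8.07, 8.36 and 8.21 in myelocytes, against 5.17, 5.61 and 4.47 in LSK cells, and rose by 3.13 ± 0.23, whereas C/EBP beta, Cebpb, rose by 1.11 ± 0.27, or by 0.84, under the fold required, without LSK replicate 3. C/EBP alpha, Cebpa, which starts the lineage, averaged 7.30, 8.82, 7.39 and 7.26 over the 4 populations, with its highest level in promyelocytes and no called difference between myelocytes and LSK cells. The same held for Gfi1, a repressor needed for neutrophils, at 6.58, 7.79, 7.19 and 5.84 and a difference of 0.61 ± 0.14. PU.1, Spi1, rose by 1.67 ± 0.17, Klf5 by 2.98 ± 0.21, the E protein inhibitor Id2 by 3.14 ± 0.25 and the retinoic acid receptor gene Rara by 1.02 ± 0.20. The difference of Rara was 0.88 without myelocyte replicate 1 and 0.79 without LSK replicate 1, both under the fold required. Irf8, which favours monocytes and dendritic cells, was lower (-1.11 ± 0.29) and averaged 7.70, 9.63, 6.59 and 5.77.

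Of the 4 lower genes on this list, which include Myc, the calls of Irf8, Nr4a1 and Fosb depended on single arrays and that of Myc did not. Without LSK replicate 3 the number of lower calls was 8, against 4 with all arrays, and without LSK replicate 2 it was 1. The immediate early gene Nr4a1 read 8.76, 9.18 and 8.86 in myelocytes, against 11.02, 11.19 and 9.14 in LSK cells, and Fosb read 8.78, 8.35 and 9.02 in myelocytes, against 11.10, 11.03 and 8.63 in LSK cells. LSK replicate 3 was the lowest LSK array for both and lay below the highest myelocyte array. Both calls were lost without LSK replicate 1 (adjusted p = 0.096 for Nr4a1 and 0.217 for Fosb, limma) and without LSK replicate 2.

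Genes of the stem cell programme were lost. Of 24 stem and progenitor transcription factor genes, 15 were lower and 0 higher, against 10.8% lower over all genes, with a median difference of -1.37. Meis1, a homeodomain factor of self-renewing cells, read 5.42, 4.76 and 4.39 in myelocytes, against 10.49, 9.98 and 10.73 in LSK cells, and fell by 5.55 ± 0.27 (46.8-fold, adjusted p = 4.32e-10). Its partner Hoxa9 read 4.82, 4.92 and 4.80 in myelocytes, against 7.94, 8.01 and 8.61 in LSK cells, and fell by 3.34 ± 0.18. Hlf fell by 3.12 ± 0.24, Bcl11a by 3.21 ± 0.22, Myb by 2.35 ± 0.14, Etv6 by 2.15 ± 0.16 and Lmo2 by 1.49 ± 0.18, while Mycn, Hoxa5 and Zfp521 ended at the dim level in myelocytes. The loss was not complete across the list. Fli1, at 0.69 ± 0.13, lay under the fold required, and Erg averaged 9.42, 7.99, 9.12 and 8.18 in LSK cells, promyelocytes, myelocytes and granulocytes. Gata2, used by stem cells, basophils and mast cells alike, read 9.73, 7.96 and 7.00 in myelocytes, against 8.53, 8.87 and 9.14 in LSK cells, highest in the myelocyte array with the highest basophil markers. The part of basophils in that value was not tested.

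Surface and niche genes of the same compartment fell as well. Of 23, 14 were lower and 4 higher, with a median difference of -1.68. The cytokine receptor Flt3, which marks multipotent progenitors, read 5.03, 5.23 and 4.64 in myelocytes, against 10.59, 10.57 and 10.91 in LSK cells, and fell by 5.72 ± 0.25 (52.8-fold). Ctla2a, a protease inhibitor gene, read 2.47, 2.99 and 3.07 in myelocytes, against 10.13, 9.34 and 9.34 in LSK cells. This was the largest decrease among the named genes, sort antigens included. Angiopoietin 1, Angpt1, read 5.86, 4.96 and 3.40 in myelocytes, against 10.25, 9.61 and 9.95 in LSK cells, with a wide spread among myelocytes, and the endoglin gene Eng fell by 4.39 ± 0.22 (20.9-fold). Emcn, Mmrn1, Tek, Procr, Robo4 and Esam, shared with endothelium, ended at the dim level in myelocytes, and so did Cd27. The 4 genes that rose were the tetraspanin gene Cd9 (2.88 ± 0.22), the marrow retention receptor Cxcr4 (1.62 ± 0.20), Plxnc1 (1.47 ± 0.15) and Ifitm3 (1.09 ± 0.22).

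Much of this loss had taken place by the promyelocyte. Of the 24 transcription factor genes 12 were lower in promyelocytes than in LSK cells and 6 lower in myelocytes than in promyelocytes, and of the 23 surface genes 16 and 6, where the shares over all genes were 2.75% and 9.87%. Meis1 averaged 10.40, 7.61, 4.85 and 4.58 over the 4 populations, a decrease spread over both steps. Other genes among the largest decreases were the syntaxin-binding gene Stxbp4, which read 2.48, 2.34 and 3.21 in myelocytes, against 8.65, 7.88 and 9.05 in LSK cells, the adhesion receptors Adgrl4 (35.2-fold lower) and Adgrg1 (32.1-fold lower), the Myc target gene Myct1, the mucin gene Muc13 and the melanocortin receptor gene Mc5r, the last 3 of which were dim in myelocytes.

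Lymphoid priming genes, which multipotent progenitors express at a low level, fell in 10 of 16 cases and rose in 0. Dntt, which encodes terminal transferase, read 3.87, 3.77 and 3.55 in myelocytes, against 9.01, 9.35 and 9.52 in LSK cells. It was dim in promyelocytes too, at 3.95. Mef2c fell by 3.03 ± 0.18 (8.15-fold), Tcf4 by 2.24 ± 0.18, and Tcf12 by 1.95 ± 0.17. Satb1 was not called and averaged 9.80, 8.43, 9.86 and 10.15 over the 4 populations, so that its level in myelocytes was near that in LSK cells with a lower value between them. Of 7 erythroid markers 2 were lower and 0 higher, the carbonic anhydrase genes Car2, which read 5.41, 5.80 and 5.76 in myelocytes, against 10.41, 9.88 and 10.25 in LSK cells, and Car1 (-2.80 ± 0.49). Of 8 megakaryocyte markers 2 were lower, Pf4 (-1.60 ± 0.38) and Gp5 (-1.46 ± 0.20), and 1 was higher, the integrin chain gene Itgb3 (2.66 ± 0.19).

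Genes of cell growth formed a large block of decreases. Myc, which drives ribosome production and cell growth, read 6.25, 5.26 and 5.67 in myelocytes, against 10.46, 10.76 and 11.14 in LSK cells, and fell by 5.06 ± 0.26 (33.3-fold, adjusted p = 5.37e-10). Mxd1, which competes with Myc for the partner Max, read 10.94, 10.73 and 10.66 in myelocytes, against 7.22, 7.45 and 7.22 in LSK cells, and rose by 3.48 ± 0.17 (11.1-fold), and Max itself rose by 1.46 ± 0.12. Myc was still at 10.14 in promyelocytes and Mxd1 at 6.98, so that both changes lay between promyelocytes and myelocytes.

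Of 23 ribosome biogenesis genes 21 were lower and 0 higher, with a median difference of -2.35, and 20 or 21 were called lower in each scaling, block and left-out array that was run. Gnl3, which encodes nucleostemin, read 5.36, 5.41 and 5.31 in myelocytes, against 9.34, 8.73 and 8.99 in LSK cells. Dkc1, the pseudouridine synthase dyskerin, fell by 3.24 ± 0.19 (9.45-fold), and the small nucleolar RNP proteins Nop58 and Fbl by 3.23 ± 0.20 and 3.14 ± 0.17. Nucleolin, Ncl, read 8.24, 8.49 and 8.48 in myelocytes, against 11.04, 10.54 and 10.57 in LSK cells, and nucleophosmin, Npm1, fell by 2.67 ± 0.22 (6.37-fold). Polr1b, of RNA polymerase I, fell by 2.84 ± 0.20, whereas its large subunit Polr1a, at -0.48 ± 0.14, lay under the fold required. Against promyelocytes 22 of the 23 were lower, where the share over all genes was 9.87%. In promyelocytes against LSK cells 1 was higher and 0 were lower, near the shares over all genes there of 1.61% and 2.75%. The list median was 8.5, 9.09, 6.24 and 5.67 in LSK cells, promyelocytes, myelocytes and granulocytes.

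The enzymes that feed nucleic acid synthesis followed the same course, with 16 of 19 lower and a median difference of -2.10. Spermidine synthase, Srm, read 6.38, 5.61 and 5.62 in myelocytes, against 9.38, 9.56 and 9.54 in LSK cells, and fell 12.3-fold (-3.62 ± 0.19). Mthfd1, of the folate cycle, fell by 3.49 ± 0.17, the purine enzyme Atic by 3.16 ± 0.18, the pyrimidine enzyme Cad by 2.64 ± 0.20 and serine hydroxymethyltransferase Shmt2 by 2.96 ± 0.23. Mthfd2, a mitochondrial folate enzyme, was at 0.99 ± 0.24, just under the fold required. Of 10 chaperonin genes, which fold new proteins, 9 were lower (Hspe1 by 2.79 ± 0.14 and Cct3 by 2.37 ± 0.21), of 18 aminoacyl-tRNA synthetases 7 were lower (Iars by 2.42 ± 0.17), and of 53 cytosolic ribosomal protein genes 41 were lower, with a median of -1.35. Small nucleolar RNA genes were lower in 10 of 51 cases (19.6%, against 10.8% over all genes), with 0 higher. Mitochondrial ribosomal protein genes fell in 15 of 76 cases (19.7%) and rose in 1. With arrays centred on the median 8 of the 76 fell, near the share over all genes in that setting, 1706 of 19937. Subunits of oxidative phosphorylation stood apart from these lists. Of 78, 2 were higher and 1 lower, against 7.74% and 10.8% over all genes, with a median of -0.06.

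The E-box CACGTG, which Myc binds with Max, was found in 3 of 20 promoters of ribosome biogenesis genes (15%) and in 2 of 18 of the nucleotide, one-carbon and polyamine list (11.1%), against 7.15% of all promoters. With these counts the shares are descriptions only.

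**Figure D4:**
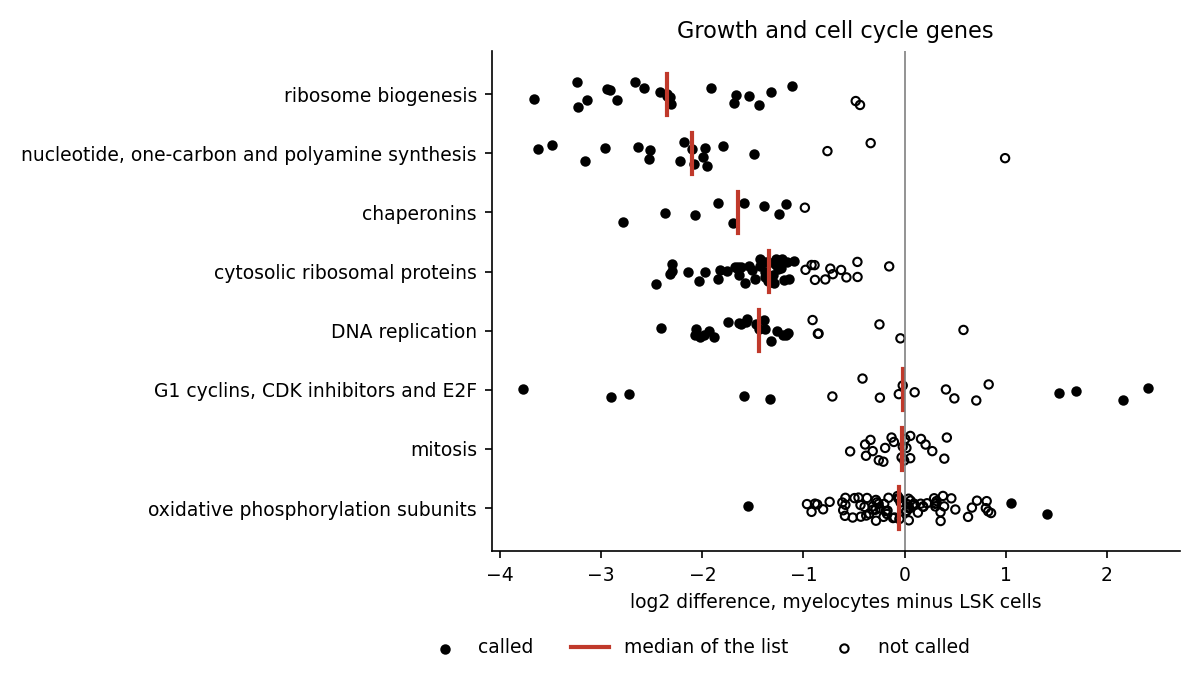
Log2 difference, myelocytes minus LSK cells, of each member of 8 lists of growth and cell cycle genes, filled points being called and open points not, with the median of each list as a bar. Medians were -2.35 for ribosome biogenesis, -1.43 for DNA replication and -0.02 for mitosis.

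Cell cycle genes separated by phase. Of 27 DNA replication genes 21 were lower and 0 higher (median difference -1.43), whereas of 22 mitosis genes 0 were called in either direction (median -0.02), with single genes between -0.54 and 0.42. The helicase subunit Mcm6 read 7.69, 8.08 and 8.46 in myelocytes, against 10.65, 10.35 and 10.45 in LSK cells, and fell by 2.41 ± 0.21 (5.3-fold). Pcna, the sliding clamp, read 9.12, 10.63 and 10.15 in myelocytes, against 11.77, 11.56 and 11.49 in LSK cells, and fell by 1.64 ± 0.39, and the catalytic subunit of polymerase epsilon, Pole, fell by 2.06 ± 0.22. Rrm2, a subunit of ribonucleotide reductase, was at 0.58 ± 0.29 and did not pass, while its partner Rrm1 fell by 1.26 ± 0.31, or by 0.84, under the fold required, without myelocyte replicate 1. Of the mitosis genes, Top2a read 9.16, 10.37 and 10.24 in myelocytes, against 10.48, 10.11 and 9.94 in LSK cells, and Ccnb2, which encodes cyclin B2, read 9.16, 9.92 and 9.82 in myelocytes, against 9.50, 9.88 and 9.47 in LSK cells.

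The 3 myelocyte arrays were not equal in this. The mean over replication genes was 6.84, 7.45 and 7.60 in myelocytes, against 8.83, 8.60 and 8.53 in LSK cells, with no overlap, and the mean over mitosis genes was 7.61, 8.65 and 8.51 in myelocytes, against 8.41, 8.52 and 8.02 in LSK cells, with overlap. Myelocyte replicate 1, the array with the highest markers of basophils, monocytes and class II MHC genes, was the lowest on both lists. Without it 18 replication genes were lower and 0 mitosis genes were called. A share of non-dividing cells in that array was not tested. Both lists fell later: the median of the mitosis list was 8.30, 8.63, 8.19 and 5.45, and that of the replication list 8.47, 8.67, 7.50 and 5.70, in LSK cells, promyelocytes, myelocytes and granulocytes.

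Because replication and mitosis genes parted, promoters of 2 replication genes are shown for the motif of E2F, the factors that switch on S phase genes. Matches to TTTCCCGC or TTTGGCGC on either strand (GCGGGAAA or GCGCCAAA as read on the other) are in capitals.
Mcm6: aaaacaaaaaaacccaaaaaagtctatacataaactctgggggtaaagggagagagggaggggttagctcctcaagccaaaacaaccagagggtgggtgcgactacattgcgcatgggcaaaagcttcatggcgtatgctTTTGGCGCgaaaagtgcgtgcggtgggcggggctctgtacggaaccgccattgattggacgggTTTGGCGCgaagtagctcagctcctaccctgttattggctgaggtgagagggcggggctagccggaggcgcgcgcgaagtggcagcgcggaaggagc
Mcm7: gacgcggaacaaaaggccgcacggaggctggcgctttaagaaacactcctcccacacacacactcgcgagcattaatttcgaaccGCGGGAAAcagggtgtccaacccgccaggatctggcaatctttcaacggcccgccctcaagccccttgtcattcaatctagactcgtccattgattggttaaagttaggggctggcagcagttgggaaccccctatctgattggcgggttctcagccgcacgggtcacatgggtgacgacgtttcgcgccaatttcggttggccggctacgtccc
The Mcm6 window is chr1:128359656-128359955 on the minus strand and the Mcm7 window chr5:138171834-138172133 on the minus strand of GRCm38.p6, from RefSeq as before. The Mcm6 matches began 110 and 47 bases before the start site and the Mcm7 match 165 bases before it. Mcm7 has 2 windows, and the other held no match. Of 27 promoters found for 23 replication genes, 9 held 1 of these motifs (33.3%), against 0 of 18 for mitosis genes and 1.56% of all promoters. Of the 9 genes with a match 8 were called lower, near the share over all replication genes measured, 21 of 27 (77.8%). Among the 8 were Mcm7 (-1.93 ± 0.25) and Mcm5 (-1.20 ± 0.20), and Cdc6, at -0.86 ± 0.23, was not called. Whether the motif goes with the decrease was not tested.

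Upstream of S phase the D-type cyclins moved in opposite directions. Ccnd2 read 7.33, 6.84 and 6.40 in myelocytes, against 10.60, 10.63 and 10.67 in LSK cells, and fell by 3.78 ± 0.22 (13.7-fold), Ccnd1 fell by 1.59 ± 0.17, and Ccnd3 rose by 1.53 ± 0.19. Their kinases Cdk4 and Cdk6 fell by 2.90 ± 0.22 (7.47-fold) and 2.73 ± 0.15 (6.61-fold), with Cdk4 at 8.40, 8.16 and 8.40 in myelocytes, against 11.45, 11.11 and 11.11 in LSK cells. The kinase inhibitor Cdkn2d rose by 2.16 ± 0.16, the retinoblastoma gene Rb1 by 1.70 ± 0.18 and E2f2 by 2.41 ± 0.20, and E2f3 fell by 1.33 ± 0.16. In total 4 of 19 genes of this list were higher and 5 lower, against 7.74% and 10.8% over all genes. In promyelocytes against LSK cells 0 of the 19 were called, near the shares over all genes there of 1.61% higher and 2.75% lower.

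Metabolic lists held calls in both directions. Of 15 glycolysis genes 6 were higher and 2 lower, with changes in single isoenzymes and transporters. Slc2a3, a high-affinity glucose transporter, read 11.26, 11.20 and 11.05 in myelocytes, against 8.76, 7.79 and 8.25 in LSK cells, the hexokinases Hk3 and Hk2 rose by 2.74 ± 0.23 and 2.18 ± 0.17, and Pfkfb4 rose by 3.67 ± 0.15 (12.7-fold), while the muscle form of phosphofructokinase, Pfkm, fell by 2.46 ± 0.20 (5.49-fold). Of 14 iron and haem genes 4 were higher and 3 lower. The iron exporter ferroportin, Slc40a1, read 10.32, 10.08 and 10.00 in myelocytes, against 5.83, 5.76 and 5.39 in LSK cells, and rose by 4.47 ± 0.18 (22.2-fold), and the early haem enzyme Alad fell by 1.97 ± 0.16. Of 17 cholesterol genes 2 were higher and 2 lower, near the shares of 7.74% and 10.8% over all genes.

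Receptors for growth factors rose in 5 of 19 cases: the shared beta chains Csf2rb (2.52 ± 0.20) and Csf2rb2 (2.41 ± 0.23) and the alpha chain Csf2ra (2.11 ± 0.25) of the GM-CSF family, Ifngr2 (1.67 ± 0.13), and the G-CSF receptor Csf3r, which read 10.08, 10.15 and 10.01 in myelocytes, against 8.57, 8.41 and 8.72 in LSK cells. Il6st, the signal chain for interleukin 6, fell by 1.84 ± 0.29. Without myelocyte replicate 3 the number of higher calls was 8. Of 20 inflammatory mediators 9 were higher and 2 lower. The leukotriene enzyme 5-lipoxygenase, Alox5, read 11.46, 11.22 and 11.11 in myelocytes, against 5.49, 5.83 and 5.64 in LSK cells (48.8-fold higher), and the chemokine Ccl6 rose by 3.91 ± 0.37. Il6 read 6.67, 5.30 and 3.57 in myelocytes, against 2.06, 2.16 and 1.95 in LSK cells, an increase that followed the basophil markers among the 3 myelocyte arrays and whose source was not tested. Interferon-induced genes were called higher in 2 of 16 cases (12.5%) and lower in 0, near the share of 7.74% higher over all genes. The 2 were Oas3 (1.46 ± 0.22) and Oas2 (1.27 ± 0.23), both of them lowest in promyelocytes.

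Genes of nuclear structure, chromatin and RNA silencing were also counted. Of 12 nuclear envelope genes 4 were higher and 1 lower: the nesprin Syne1 read 11.04, 10.96 and 11.07 in myelocytes, against 6.33, 6.62 and 6.50 in LSK cells, Sun2 rose by 1.93 ± 0.17 and the lamin B receptor Lbr, needed for the lobed nucleus, by 1.47 ± 0.26, while Banf1 fell by 1.35 ± 0.20. Of 14 chromatin and DNA methylation genes 8 were lower, with Dnmt3b at -2.62 ± 0.19 and Tet1 at -1.75 ± 0.19, and 1 was higher, Tet2 (1.08 ± 0.16). Of 15 genes of the miRNA pathway 1 was higher and 2 lower, near the shares of 7.74% and 10.8% over all genes. The nuclear processing enzyme Drosha read 5.75, 5.83 and 5.78 in myelocytes, against 8.09, 7.92 and 8.19 in LSK cells, and fell by 2.28 ± 0.16 (4.85-fold, adjusted p = 1.7e-08), Ago1 fell by 2.11 ± 0.19, and Tnrc6b rose by 1.22 ± 0.14. Dicer1, at -0.36 ± 0.15, was not called. Among 12 genes of the Bcl2 family 0 were higher and 1 was lower, also near the shares of 7.74% and 10.8% over all genes. The lower gene was Bcl2 (-2.19 ± 0.13, 4.56-fold lower), and the short-lived survival factor Mcl1 was at 0.39 ± 0.19. Of 16 lysosomal genes 7 were higher, led by Ctsh (3.50 ± 0.25).

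Markers of cells outside the lineage are given beside the shares over all genes, 7.74% higher and 10.8% lower. Of 11 basophil and mast cell markers 7 were higher, among them the basophil proteases Mcpt8, which read 12.15, 10.98 and 9.70 in myelocytes, against 6.31, 6.68 and 5.77 in LSK cells, and Prss34, which read 12.68, 11.91 and 10.59 in myelocytes, against 6.10, 6.54 and 6.36 in LSK cells, and the receptor chain Fcer1a, which read 10.12, 8.07 and 6.95 in myelocytes, against 3.73, 3.06 and 3.05 in LSK cells. Each was highest in myelocyte replicate 1 and lowest in replicate 3, and each was low in granulocytes, where Mcpt8 averaged 5.87, Prss34 6.47 and Fcer1a 3.39. Basophil messages were thus present in all 3 myelocyte arrays. Hdc, on the same list, also stayed high in granulocytes (7.30, 9.74, 11.17 and 11.56 over the 4 populations). Of 12 monocyte and macrophage markers 5 were higher, with Csf1r at 1.45 ± 0.36 and Ccr2 at 2.19 ± 0.49, 9 of the 12 were highest in myelocyte replicate 1 and lowest in replicate 3, and the count was 8 without myelocyte replicate 3 and 2 without both myelocyte replicate 1 and LSK replicate 3. Of 12 dendritic cell and class II genes 1 was higher, or 5 without myelocyte replicate 3. For T and NK cells 0 of 10 were called and 5 of the 10 were dim in both populations. For B cells 0 of 10 were higher and 4 lower, for eosinophils 1 of 7 was higher and 0 lower, and for stromal and endothelial cells 1 of 10 was higher and 1 lower. The counts for eosinophils, for stromal and endothelial cells and for class II genes with all arrays were near the shares over all genes. The secondary granule genes lay close together in the 3 myelocyte arrays, with means of 11.95, 11.86 and 11.77. Their median was 11.97 in myelocytes and 11.89 in granulocytes, so that as a list they do not set these populations apart.

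**Figure D5:**
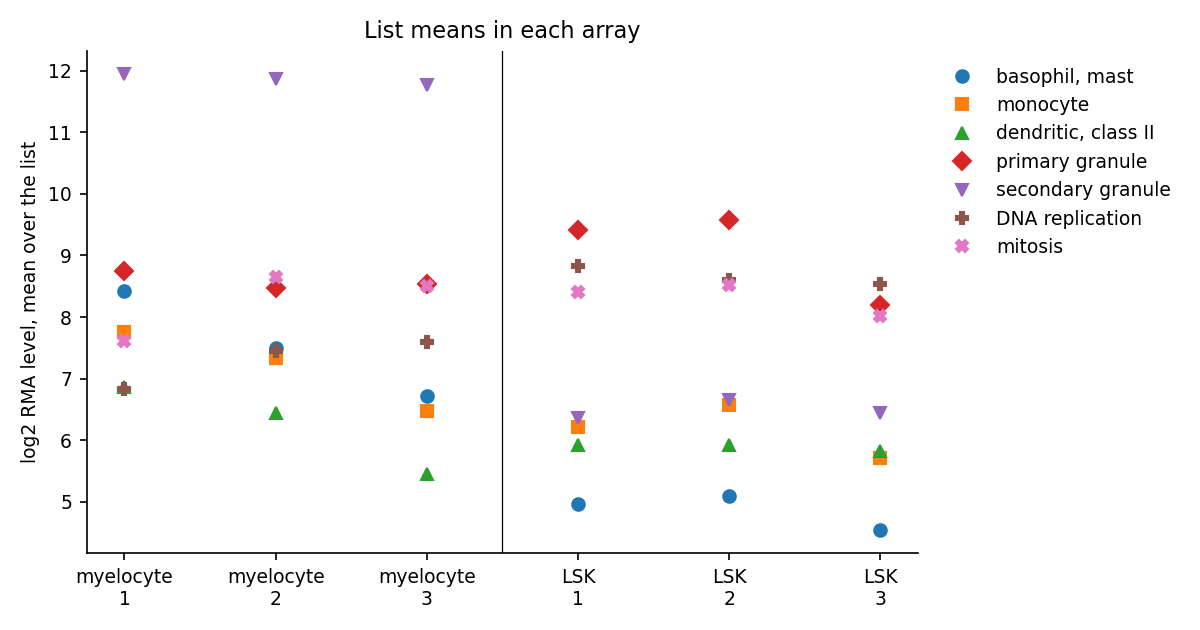
Mean log2 RMA level over the members of 7 lists in each of the 3 myelocyte and 3 LSK arrays, to be compared within a list and not between lists. Secondary granule genes lay at 11.77 to 11.95 in myelocytes and 6.36 to 6.65 in LSK cells, while the basophil and mast cell list ran from 8.42 in myelocyte replicate 1 to 6.72 in replicate 3.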

How the data were processed

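Total RNA of sorted marrow populations was hybridised to 12 arrays, 3 of each of 4 populations. The authors deposited log2 values from justRMA (background correction, quantile normalization and median polish of each probe set), a method whose scaling assumes like overall distributions on all arrays. The version is not given in the sources used here. Of 34760 rows, 21640 carried 1 gene symbol, 1321 several and 11799 none. Rows with 1 symbol were kept, and each of the 954 genes that had several was represented by its brightest row, judged on the average of all 12 arrays. One gene, Rpl21, had rows that were called in opposite directions. Symbols of 21553 rows were matched in RefSeq.

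Means of the 4 populations were fitted with limma 3.58.1 in R 4.3.3, with empirical Bayes moderation and Benjamini-Hochberg adjustment over 19937 genes. Calls required a minimum fold of 2 together with an adjusted p under 0.05. Gene lists are described by counts and medians. The members and lists were chosen with earlier results of these data known. Named genes were the 15 largest increases and 15 largest decreases among called genes whose groups did not overlap, predicted models left out, plus members of the lists. A gene that the rule names is not reported here. Probes of close relatives, such as Ly6, Stfa and Csf2rb genes, can share signal. Arrays hold no read depth, and their number limits the precision. Figures were drawn with matplotlib 3.10.9.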

Additional observations from a re-analysis of the deposited data

How the results depend on the processing

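The counts of 1543 genes higher and 2150 lower in myelocytes moved by more than 1.5 times with the fold threshold: without one they were 3189 and 4061, and with a fold of at least 4 they were 547 and 559. Under the other settings chosen at the outset (only these 6 arrays, unadjusted p, 3 scalings, a filter on dim genes, the mean of all rows of a gene and an intensity trend) they lay between 1527 and 1906 and between 1706 and 2151, the extremes of 1906 and 1706 coming from centring on the median. Leaving out each array gave 1482 to 1622 higher and 2071 to 2260 lower. Between myelocytes and LSK cells replicate numbers did not pair the arrays: same-numbered arrays deviated together at r = 0, -0.055 and 0.006, and no array correlated best with its own number. Pairing with the other populations was not tested beyond the block below. Xist was low in replicate 1 of promyelocytes (3.76, against 10.49 and 10.42) and of granulocytes (3.97, against 8.50 and 8.76). In myelocytes it was low in replicates 1 and 3. With the replicate block 1548 were higher and 2149 lower, 1543 and 2148 of them shared with the fit without it, and Fosb lost its call (adjusted p = 0.0636, limma). Chosen after seeing the data, leaving out both myelocyte replicate 1 and LSK replicate 3 gave 1449 and 2197. Myelocyte replicate 2 alone against the LSK arrays was also run, assumed to vary like the other groups, and only its effect sizes are given. 

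Of 175 named genes that were called, 166 kept direction and call under every scaling, the block and each left-out array. The exceptions were Cebpb, Fosb, Ifitm3, Irf8, Nr4a1, Rara, Rrm1, Tet2 and Xist. All 175 were called on these same arrays, and some were chosen for large differences without overlap. Their stability was thus largely set by the choice and is no measure for all calls. Over all genes, leaving out 1 array kept 1441 to 1511 of the 1543 higher calls and 1994 to 2095 of the 2150 lower calls. Genes near 0 changed sign: with arrays left out in turn, Ccnb2 ran from -0.12 to 0.26, Cebpa from -0.3 to 0.39, Satb1 from -0.03 to 0.21, Ms4a3 from -0.56 to 1.41 and Top2a from -0.48 to 0.13. Quantile normalization gave -0.26 for Ccnb2 and -0.24 for Satb1. Without both myelocyte replicate 1 and LSK replicate 3, Cebpa was at -0.4, Ms4a3 at -0.37 and Top2a at 0.01, and with myelocyte replicate 2 alone Cebpa was at -0.09, Kdm5d at -0.05, Satb1 at -0.01 and Top2a at 0.19. The cause of these changes was not tested. Differences of genes that were dim in a population are limited by its background, and no fold was given for them.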

Other observations

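Several gene families outside the lists above, chosen after their values were seen, held calls in myelocytes against LSK cells, where 7.74% of all genes were higher and 10.8% lower. Of 59 Rab GTPases, which direct vesicles to their targets, 18 were higher and 1 lower. Rab3d, of secretory vesicles, read 9.25, 9.21 and 8.82 in myelocytes, against 6.06, 6.43 and 5.75 in LSK cells, and Rab38, the one that was lower, read 4.43, 4.55 and 4.25 in myelocytes, against 9.07, 8.56 and 9.58 in LSK cells. Of 24 subunits of the vacuolar proton pump, which acidifies granules and lysosomes, 9 were higher and 0 lower. Of 57 translation initiation and elongation factors 3 were higher and 21 lower.

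Members of 2 GTPase families of the immune system were lower: 5 of 8 Gimap genes and 4 of 8 Gbp genes, with 0 higher in either family. Of 7 Slfn genes 3 were higher and 1 lower.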
